A study of Mus musculus with 4 samples.

Results

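The transcripts described here are those of 10 genes of glutamate signalling, out of 37239 genes listed in the files: the AMPA receptor subunit genes Gria1, Gria2, Gria3 and Gria4, the NMDA receptor subunit genes Grin1 and Grin2a, the glutamate transporter genes Slc1a1, Slc1a2 and Slc1a3, and Glul, which encodes glutamine synthetase. They were taken by symbol, and all 10 were among the 14721 genes tested (at least 1 CPM in at least 2 libraries), 9 of them at that level in all 4 libraries and Grin2a in 3. RNA-seq was made from dissected whole cochleae of mice at postnatal day 8, with 2 libraries from homozygous Ikzf2 cello/cello mutants and 2 from Ikzf2 +/+ littermates, called cello and wild-type here. Ikzf2 encodes helios, an Ikaros family DNA-binding protein made by outer hair cells, and cello is a point mutation carried by every cell of the mutant rather than a deletion limited to hair cells. The labels do not say how many animals went into a library, so the p-values measure the spread between these 4 libraries, which may be partly technical.

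At the first synapse of hearing, inner hair cells release glutamate onto the endings of spiral ganglion neurons, where AMPA receptors carry the fast response. AMPA receptors are tetramers, and those that contain the edited product of Gria2 pass little calcium. NMDA receptors are built around the obligatory subunit of Grin1. Released glutamate is cleared by sodium-coupled transporters of the Slc1a family, of which the product of Slc1a3 sits in the supporting cells around inner hair cells, and glutamine synthetase turns glutamate into glutamine in glia and supporting cells.

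The cello libraries held 42450937 and 47463910 counted alignments and the wild-type libraries 49719984 and 42152616, so that 1 read was worth 0.0201 to 0.0237 CPM. Ikzf2 itself stood at 17.7 and 16.9 CPM in cello and at 22.9 and 18.5 CPM in wild-type (log2 fold change -0.24; limma, adjusted p = 0.545), and since cello is a point mutation this level does not check the genotype labels. Markers of hair cells, supporting cells, neurons and Schwann cells were read in every library, apart from the inner hair cell gene Cabp2, which was under the filter. The 15 spiral ganglion neuron markers summed to 909 and 1111 CPM in cello and to 389 and 809 CPM in wild-type. The 12 Schwann cell and myelin markers summed to 4197 and 5152 CPM in cello and to 1252 and 2963 CPM in wild-type. Wild-type replicate 1 was thus the library lowest in nerve transcripts. The 8 markers of central glia summed to 36.2 and 37.5 CPM in cello and to 46.0 and 68.6 CPM in wild-type, and 4 of them (Mog, Olig1, Olig2 and Opalin) were under the filter. The 10 outer hair cell markers summed to 319 and 297 CPM in cello and to 485 and 486 CPM in wild-type. In a bulk sample, more cells of a type and more RNA per cell cannot be told apart.

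Transcripts of 3 AMPA receptor subunits, of the NMDA receptor subunit Grin1 and of the transporter Slc1a2 had higher values in both cello libraries than in either wild-type library, whereas those of Slc1a3 and Glul, the most abundant of the 10, overlapped between genotypes. The largest ratio of means was 2.49, for Gria2. Of the 10 genes, 6 lay higher in both cello libraries (the sixth was Slc1a1, at under 2 CPM) and 1, Gria1, lay lower in both. Over all genes tested, 16.9% lay higher without overlap and 28.7% lower. The median log2 fold change of the 10 genes was 0.33, against -0.03 for all genes tested, and 0.25 without wild-type replicate 1. By limma, 0 of the 10 passed an adjusted p of 0.05, as did 0% of all genes tested. At an unadjusted p under 0.05 there were 4 of the 10 genes higher (Gria2, Gria3, Gria4 and Slc1a2) and 0 lower, against 4.42% of all genes higher and 6.47% lower. DESeq2 on the recovered reads called Gria2 and Gria3 higher, against 0.847% of genes higher and 0.589% lower among those with a defined adjusted p. In edgeR, 0 of the 14721 genes passed, with 1463 at an unadjusted p under 0.05.

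**Figure D1:**
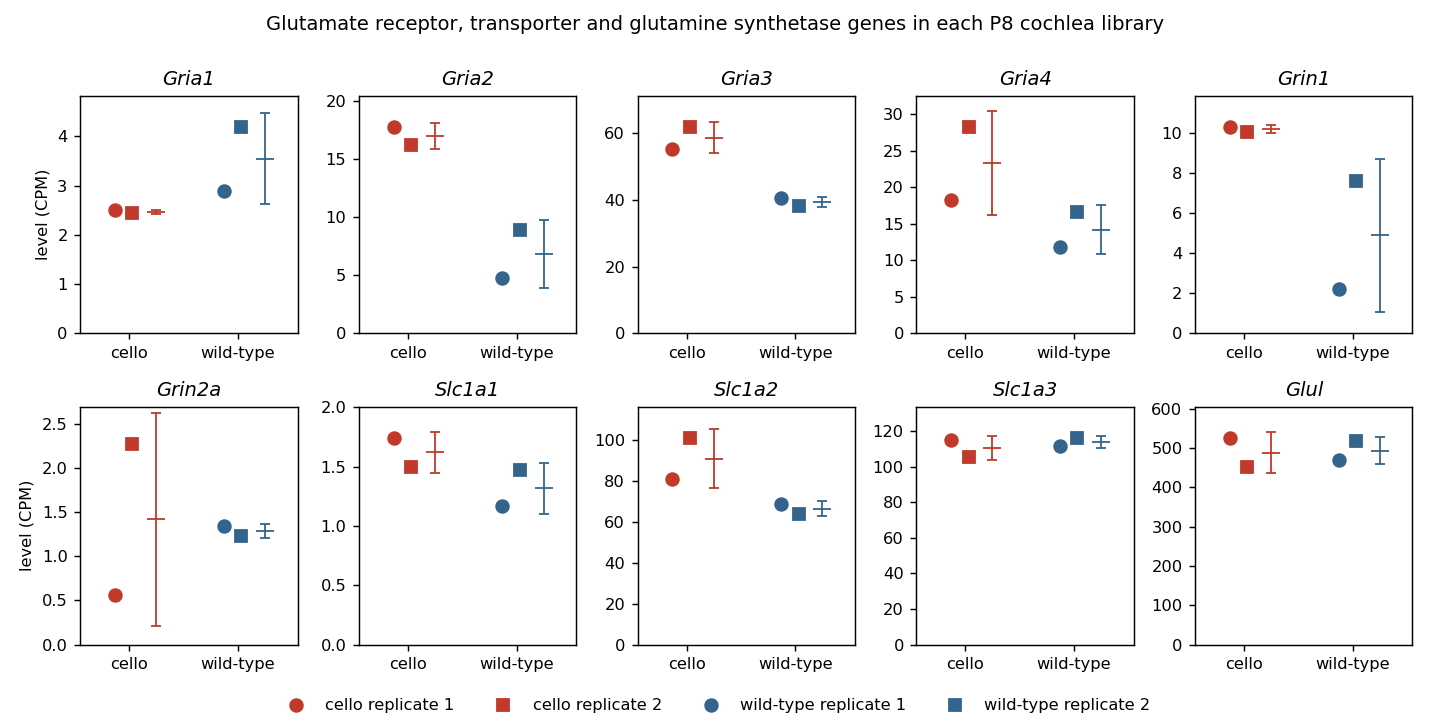
Level in CPM (vertical axes, from 0) of each of the 10 genes in the 2 cello libraries (red, left) and the 2 wild-type libraries (blue, right); circles are replicate 1, squares replicate 2, and the bar beside them is the mean ± SD (n = 2). Gria2, Gria3, Gria4, Grin1, Slc1a1 and Slc1a2 lie higher in both cello libraries, and wild-type replicate 1 is the lowest library for Gria2, Gria4, Grin1 and Slc1a1.

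The AMPA subunit with the largest difference was Gria2 (ENSMUSG00000033981, chromosome 3, 80681450 to 80802835 of GRCm38, a protein-coding gene on the minus strand). It stood at 17.8 and 16.2 CPM in cello, against 4.75 and 8.87 CPM in wild-type. The cello libraries lay close together, while the wild-type libraries differed by a factor of 1.87. Its log2 fold change was 1.32 (SE 0.29, 95% interval 0.58 to 2.05; limma, unadjusted p = 0.0055, adjusted p = 0.419), and 177 of the 14721 genes had a p as small. DESeq2 gave a log2 fold change of 1.36 (SE 0.33) with an adjusted p of 0.0064, and edgeR an adjusted p of 0.451. The difference was 0.90 when wild-type replicate 1 was left out and 1.73 when replicate 2 was, each against 1 wild-type library.

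RefSeq promoter windows on GRCm38.p6 were held for 7 of the 10 genes, and the 250 bases before the transcription start of Gria2 and Grin1 are shown because these genes had the 2 largest fold changes. Each sequence reads 5′ to 3′ on the strand of its gene, Gria2 from chr3:80802836-80803085 (minus strand) and Grin1 from chr2:25319188-25319437 (minus strand), and capitals mark a match to the RE1 consensus, the element bound by the repressor REST, which silences neuronal genes outside neurons.
Gria2: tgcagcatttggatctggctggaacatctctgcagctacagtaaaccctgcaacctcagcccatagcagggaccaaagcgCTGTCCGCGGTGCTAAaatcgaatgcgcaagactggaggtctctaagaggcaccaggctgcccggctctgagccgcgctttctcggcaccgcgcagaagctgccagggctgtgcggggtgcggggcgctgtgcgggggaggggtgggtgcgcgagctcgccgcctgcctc
Grin1: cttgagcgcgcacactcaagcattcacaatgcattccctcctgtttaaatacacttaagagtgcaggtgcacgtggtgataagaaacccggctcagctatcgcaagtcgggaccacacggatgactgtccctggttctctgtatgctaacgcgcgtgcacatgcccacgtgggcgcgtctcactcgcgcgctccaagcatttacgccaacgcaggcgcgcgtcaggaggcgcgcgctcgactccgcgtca
Both strands of each window were searched. The RE1 consensus matched 19 of 32851 windows (0.0578%), and 1 of the 7 windows of these genes. The match in Gria2 lies 155 to 170 bases before the start and reads TTAGCACCGCGGACAG on the opposite strand. The letters TGGGAA, a core that Ikaros family factors bind, occurred in 21.6% of all windows and in 0 of the 7. Among the 7, the window of Slc1a2 (chr2:102706188-102706437) lies inside the annotated gene, before a RefSeq start within it. A match is a description of letters and not of binding, and the window covers only 250 bases.

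Gria3 was the AMPA subunit gene with the narrowest interval. It lies on the X chromosome (ENSMUSG00000001986, 41400854 to 41678601, a protein-coding gene on the plus strand). Its level was 55.4 and 62.0 CPM in cello and 40.5 and 38.3 CPM in wild-type, so that the gap between genotypes was wider than the gap within either. The log2 fold change was 0.57 (SE 0.09, 95% interval 0.33 to 0.80; limma, unadjusted p = 0.0015, adjusted p = 0.419). DESeq2 gave an adjusted p of 7.6e-04 and edgeR one of 0.451, and the fold change ran from 0.49 to 0.65 over all 15 alternative settings. Every library held both Xist, the noncoding RNA of the inactive X chromosome, and the Y-linked gene Ddx3y, in unequal amounts. Each library thus held RNA of females and males, although the number of animals is not given. Xist stood at 827 and 163 CPM in cello and at 372 and 286 CPM in wild-type, and Ddx3y at 13.8 and 95.1 CPM in cello and at 56.2 CPM in both wild-type libraries. The 2 cello libraries stood at the extremes of Xist and of Ddx3y. The part of the sexes' shares in the Gria3 difference was not tested.

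Gria4 (ENSMUSG00000025892, chromosome 9, 4417896 to 4796234, a protein-coding gene on the minus strand) encodes a further AMPA subunit of these neurons. It stood at 18.2 and 28.3 CPM in cello against 11.8 and 16.6 CPM in wild-type. The groups did not overlap, but the lower cello library lay close to the higher wild-type library. The log2 fold change was 0.68 (SE 0.26, limma, unadjusted p = 0.046, adjusted p = 0.453), and 0.37 without cello replicate 2.

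Gria1 (ENSMUSG00000020524, chromosome 11, 57011387 to 57330244, a protein-coding gene on the plus strand) encodes a main AMPA subunit of forebrain neurons. It stood at 2.50 and 2.44 CPM in cello and at 2.90 and 4.20 CPM in wild-type. It was the one AMPA subunit gene with lower values in both cello libraries, from 106 and 116 reads in cello against 144 and 177 reads in wild-type. The log2 fold change was -0.43 (SE 0.22, limma, unadjusted p = 0.112, adjusted p = 0.529), -0.19 when wild-type replicate 2 was left out and -0.66 when replicate 1 was.

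Per length of merged exons, Gria3 was the most abundant AMPA subunit transcript in all 4 libraries and Gria4 the next. Gria3 made up 55.8% and 51.5% of the summed AMPA subunit level (CPM per kb) in cello, against 60.7% and 49.96% in wild-type. Gria4 made up 28.7% and 36.7% in cello and 27.7% and 33.8% in wild-type, so neither share separated the genotypes. The share of Gria2 was 11.4% and 8.50% in cello and 4.51% and 7.34% in wild-type, and that of Gria1 was 4.10% and 3.31% in cello and 7.09% and 8.93% in wild-type. Both shares were apart without overlap. Per length, Gria2 exceeded Gria1 in the 2 cello libraries and lay below it in the 2 wild-type libraries. In CPM, Gria2 lay above Gria1 in all 4 libraries (wild-type 4.75 and 8.87 CPM against 2.90 and 4.20 CPM). That change of order therefore rests on the scaling by 15548 exon bases for Gria2 and 6043 for Gria1. With 2 libraries on each side the smallest two-sided p of an exact permutation is 0.333, so the shares were not tested. The length-scaled sum of the 4 subunits was 10.1 and 12.2 CPM per kb in cello and 6.76 and 7.78 CPM per kb in wild-type. These levels use every annotated exon, so genes with long alternative ends, such as Gria2 with 15548 exon bases against 6305 for Gria4, are set lower by that scaling.

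**Figure D2:**
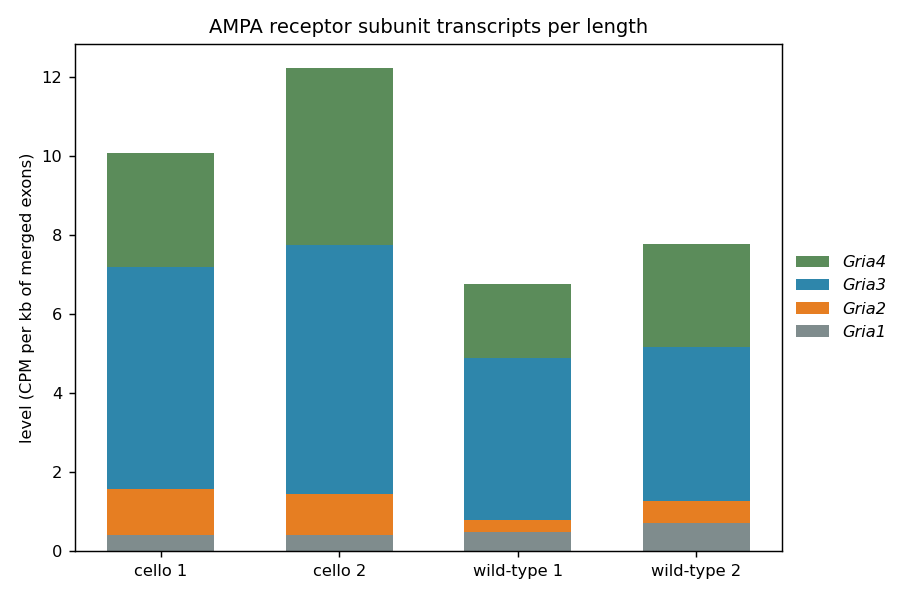
Stacked levels of the 4 AMPA receptor subunit transcripts in CPM per kb of merged exons (vertical axis, from 0) in each library. The stacks reach 10.1 and 12.2 in the cello libraries and 6.76 and 7.78 in the wild-type libraries, and Gria3 is the largest segment of each.

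Grin1 (ENSMUSG00000026959, chromosome 2, 25291181 to 25319187, a protein-coding gene on the minus strand) stood at 10.3 and 10.03 CPM in cello and at 2.19 and 7.57 CPM in wild-type. Its promoter window, printed beside that of Gria2, held no RE1 match. Such matches were rare (19 of 32851 windows), and bases after the start were not searched. Both cello libraries lay higher in CPM, yet the wild-type libraries differed from each other by a factor of 3.45, more than the ratio of 2.08 between the genotype means. The log2 fold change was 1.19 (SE 0.51, 95% interval -0.10 to 2.49; limma, unadjusted p = 0.065, adjusted p = 0.475). Leaving out wild-type replicate 1 gave 0.40, and leaving out wild-type replicate 2 gave 1.99, each against 1 wild-type library. Its exons share 1307 bases with the antisense gene Grin1os, which stood at 0.683 CPM or less in every library. The deposited values include an entry for ambiguous alignments, with 3.40% to 3.53% of each library. Without a known strand setting, it cannot be told whether reads of the shared bases were counted for a gene or set aside there.

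Grin2a (ENSMUSG00000059003, chromosome 16, 9567898 to 9995560, a protein-coding gene on the minus strand) encodes a subunit that binds glutamate and sets the kinetics of the NMDA receptor. It stood at 0.565 and 2.28 CPM in cello and at 1.35 and 1.23 CPM in wild-type, from 24 and 108 reads in cello and 67 and 52 reads in wild-type. The 2 cello libraries enclosed the wild-type libraries, and its log2 fold change of -0.06 had a 95% interval of -1.27 to 1.16, so neither direction was resolved. Of the other NMDA subunit genes, Grin2d stood at 4.33 and 5.08 CPM in cello and at 4.77 and 4.53 CPM in wild-type. Grin3a stood at 7.92 and 5.37 CPM in cello and at 5.43 and 6.55 CPM in wild-type. Grin2b, Grin2c and Grin3b were under the filter. Per length, Grin1 made up 39.1% and 40.03% of the summed NMDA subunit level in cello and 12.7% and 32.3% in wild-type.

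Among the transporter genes, Slc1a3 was the most abundant per length and the most even. Slc1a3 (ENSMUSG00000005360, chromosome 15, 8634124 to 8710764, a protein-coding gene on the minus strand) stood at 115.1 and 105.5 CPM in cello against 111.7 and 116.2 CPM in wild-type. The groups overlapped, and the 95% interval of its log2 fold change ran from -0.26 to 0.16 around -0.05 (limma, unadjusted p = 0.586, adjusted p = 0.837). Glul (ENSMUSG00000026473, chromosome 1, 153899944 to 153909723, a protein-coding gene on the plus strand) stood at 525 and 451 CPM in cello and at 469 and 517 CPM in wild-type. These groups overlapped too, with a log2 fold change of -0.02 and a 95% interval from -0.34 to 0.30 (limma, unadjusted p = 0.894, adjusted p = 0.965). The sign of its fold change turned under 7 of 15 alternative settings.

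Slc1a2 (ENSMUSG00000005089, chromosome 2, 102658659 to 102790784, a protein-coding gene on the plus strand) encodes the transporter that astrocytes use in the brain. It stood at 80.8 and 101.1 CPM in cello and at 69.0 and 63.8 CPM in wild-type. Both cello libraries lay higher, with a log2 fold change of 0.44 (SE 0.13, 95% interval 0.12 to 0.77; limma, unadjusted p = 0.016, adjusted p = 0.428). DESeq2 gave an adjusted p of 0.063, and the difference was 0.28 without cello replicate 2. The summed markers of central glia lay lower in both cello libraries. Of these 8 markers 4 were under the filter, and in every library the largest were Aqp4 and Aldh1l1. Gfap, an astrocyte filament gene, stood at 2.36 and 3.29 CPM in cello and at 2.86 and 10.6 CPM in wild-type, with overlapping groups. The part of glial content in the Slc1a2 difference was not tested. Slc1a2 made up 30.5% and 37.3% of the length-scaled sum of 5 glutamate transporter genes in cello and 27.7% and 25.4% in wild-type, and Slc1a3 66.8% and 59.8% in cello and 69.0% and 71.2% in wild-type.

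Slc1a1 (ENSMUSG00000024935, chromosome 19, 28835049 to 28913960, a protein-coding gene on the plus strand), a transporter gene of neurons and epithelia, stood at 1.74 and 1.496 CPM in cello against 1.17 and 1.47 CPM in wild-type. The groups were barely apart, with 74 and 71 reads in cello and 58 and 62 reads in wild-type, and the log2 fold change of 0.22 (SE 0.22) had an unadjusted p of 0.355 and an adjusted p of 0.726 (limma). Its exons share 2631 bases with 4430402I18Rik on the opposite strand, which stood at 0.518 to 0.854 CPM.

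Per length, the order of mean levels in cello was Glul (147 CPM per kb, against 148 in wild-type), Slc1a3 (12.9 against 13.3), Slc1a2 (6.93 against 5.05), Gria3 (5.95 against 3.996), Gria4 (3.69 against 2.25), Gria2 (1.09 against 0.438), Grin1 (1.048 against 0.503), Gria1 (0.409 against 0.587), Slc1a1 (0.196 against 0.160) and Grin2a (0.0792 against 0.0720). Gria2 and Grin1 overlapped each other in cello, and in wild-type Grin1 lay on both sides of Gria1 and of Gria2.

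**Figure D3:**
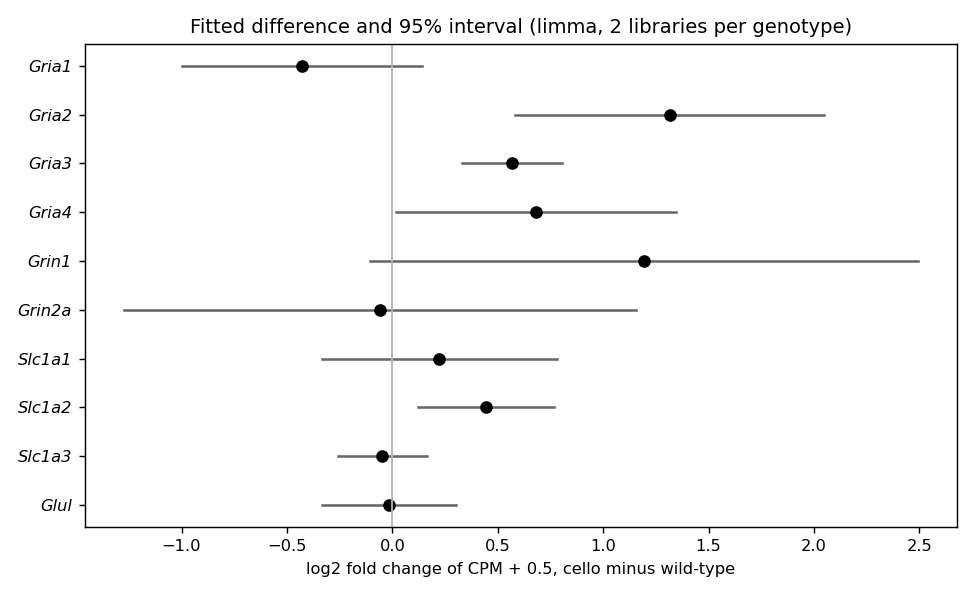
Log2 fold change of CPM + 0.5, cello minus wild-type (horizontal axis), with its 95% interval from limma for each of the 10 genes. The intervals of Gria2, Gria3, Gria4 and Slc1a2 lie above 0, those of the other 6 genes include 0, and 0 of the 10 genes passed after adjustment.

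Gria2, Gria4 and Grin1 shared with the summed nerve markers a lowest level in wild-type replicate 1, but Gria2 and Grin1 did not share their order within cello. As log2 deviations from the 4-library mean, Gria2 stood at 0.72 and 0.59 in cello and at -1.08 and -0.24 in wild-type, and Grin1 at 0.61 and 0.58 in cello and at -1.39 and 0.19 in wild-type. On the same scale the summed spiral ganglion neuron markers stood at 0.28 and 0.57 in cello and at -0.95 and 0.11 in wild-type. The summed Schwann cell markers stood at 0.49 and 0.78 in cello and at -1.26 and -0.01 in wild-type. Of the 15 neuronal markers 7 lay higher in both cello libraries and 1 lower, and of the 12 Schwann cell markers 9 lay higher and 1 lower, beside 16.9% higher and 28.7% lower over all genes tested. Gria3 and Slc1a2 were lowest in wild-type replicate 2. Gria2 and Grin1 were slightly lower in cello replicate 2 than in cello replicate 1, while both marker sums were higher in cello replicate 2. The part of nerve content in these differences was not tested.

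The median log2 fold change of the neuronal markers was 1.08, and 0.30 without wild-type replicate 1. That of the Schwann cell markers was 1.14, and 0.57 without wild-type replicate 1. The neuronal values ran from -0.45 for Gata3 to 1.62 for Scn1a, and those of the 3 markers with the smallest p include both ends of that range. Elavl4, an RNA-binding protein gene of neurons, stood at 37.5 and 47.8 CPM in cello and at 8.45 and 24.2 CPM in wild-type (log2 fold change 1.53). Scn1a encodes a sodium channel, and prosensory and hair cells also express Gata3. Among Schwann cell genes, the log2 fold changes of Drp2, Egr2 and Ncmap were 1.13, 1.19 and 1.09. By limma, 0 of the markers passed after adjustment, while DESeq2 called these 3 higher and Otog, Lmod3, Slc26a5 and Ocm lower. DESeq2 also called Mobp lower, but Mobp reached 1 CPM only in the wild-type libraries and so had to lie lower to be tested. Inner hair cell markers summed to 427 and 455 CPM in cello and to 292 and 367 CPM in wild-type. In that sum Calb2, which neurons also express, stood at 183 and 220 CPM in cello and at 57.7 and 124 CPM in wild-type. Its log2 fold change was 1.24, while Slc7a14 had one of 0.48 and Slc17a8 one of -0.38. The 7 inner hair cell markers tested had a median of 0.03, beside -0.03 for all genes tested. Supporting cell markers summed to 7159 and 7858 CPM in cello and to 8602 and 8543 CPM in wild-type, with log2 fold changes of -0.61 for Otog, -0.46 for Lfng and -0.26 for Bace2. Outer hair cell markers with the smallest p were Lmod3 (log2 fold change -1.16), Slc26a5 (-1.18) and Ocm (-2.21). Central glia markers included Mobp (-1.57), Aqp4 (-0.52) and Aldh1l1 (-0.34), each lower in both cello libraries. Fibrocyte and bone markers summed to 5105 and 1497 CPM in cello and to 2188 and 1971 CPM in wild-type. Those with the smallest p were Tbx18 (log2 fold change 0.21), Otos (0.62) and Coch (0.60), and Otos and Coch overlapped between genotypes. Of the sex-linked genes, Uty had a log2 fold change of -1.02, Kdm5d one of -0.81 and Eif2s3y one of -0.70, all with overlapping groups.

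**Figure D4:**
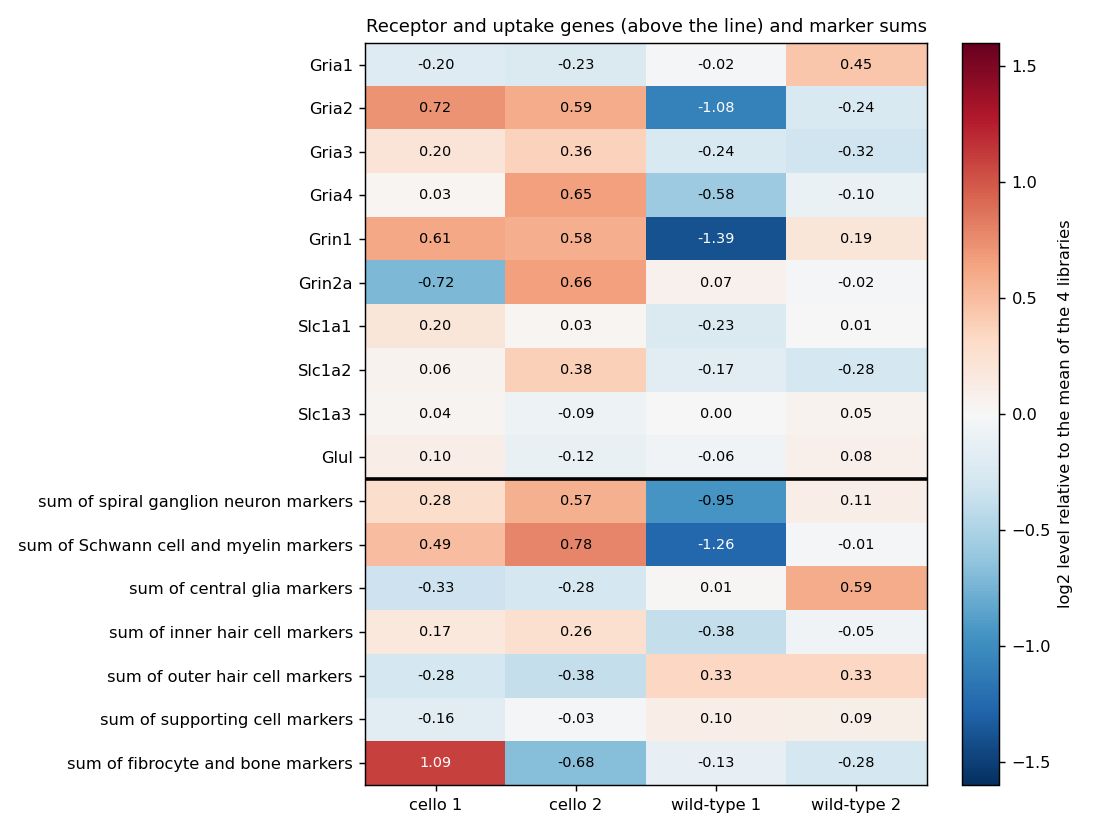
Log2 level relative to the mean of the 4 libraries (colour and printed value) for the 10 genes, above the line, and for the summed CPM of each cell type marker list, below it, in the cello (left) and wild-type (right) libraries. Gria2 and Grin1 are lowest in wild-type replicate 1, as are the neuronal and Schwann cell sums, while Slc1a3 and Glul stay within 0.12 of their mean.

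Other genes of glutamate signalling were read from 8 lists with 74 genes, of which 57 passed the filter and 0 passed the adjusted threshold in limma. Of the 57, 16 (28.1%) lay higher in both cello libraries and 11 (19.3%) lower, beside 16.9% and 28.7% of all genes tested, with a median log2 fold change of 0.07. DESeq2 called 2 of them, Neto2 higher and Slc38a5 lower, beside 0.847% higher and 0.589% lower over all genes with a defined adjusted p. Genes that passed the filter through the cello libraries alone, such as Grm8, had to lie higher to be tested.

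Receptor genes outside the 10 were mixed. Neto2, an auxiliary subunit of kainate receptors, stood at 77.3 and 74.4 CPM in cello and at 55.8 and 48.7 CPM in wild-type (log2 fold change 0.54, SE 0.09; limma, unadjusted p = 0.0021, adjusted p = 0.419). Of the kainate subunit genes, Grik4 had a log2 fold change of 0.75 and Grik3 one of 0.47, while Grik5, the most abundant in CPM, stood at 33.5 and 36.1 CPM in cello and at 33.9 and 34.5 CPM in wild-type. Among metabotropic receptors, Grm7 stood at 4.36 and 4.91 CPM in cello and at 1.61 and 2.56 CPM in wild-type, and Grm8 at 1.41 CPM in both cello libraries and at 0.342 and 0.830 CPM in wild-type. Grm4 lay the other way, at 16.4 and 17.4 CPM in cello and at 21.8 and 24.1 CPM in wild-type (log2 fold change -0.43). Grm2, Grm3, Grm5, Grm6 and Neto1 were under the filter.

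Genes of proteins that hold AMPA receptors at the synapse lay in both directions. Cacng2, the gene of the auxiliary subunit stargazin, stood at 3.11 and 4.17 CPM in cello and at 0.885 and 2.89 CPM in wild-type. Nptx1, a secreted protein that clusters AMPA receptors, stood at 5.89 and 5.204 CPM in cello and at 8.15 and 6.97 CPM in wild-type, and Olfm1 at 28.4 and 33.7 CPM in cello and at 36.2 and 46.0 CPM in wild-type. Cacng8 had 0 reads in every library, which allows up to 0.0707 and 0.0632 CPM in cello and 0.0603 and 0.0712 CPM in wild-type, and Cacng3, Cacng7 and Cnih3 were under the filter. These limits cover counting error only. Of 16 postsynaptic scaffold genes tested, 4 lay higher in both cello libraries and 4 lower, beside 16.9% and 28.7% of all genes tested, with a median of -0.04 (Dlgap2 was under the filter). Those with the smallest p were Dlgap1 (log2 fold change 0.65), Shank1 (0.71) and Shank3 (0.50), each higher in both cello libraries.

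On the release and recycling side, the vesicular transporter genes differed in direction. Slc17a8, the vesicular glutamate transporter of inner hair cells, stood at 16.1 and 13.3 CPM in cello and at 18.9 and 19.5 CPM in wild-type (log2 fold change -0.38; limma, unadjusted p = 0.032, adjusted p = 0.441). Slc17a7, which the neurons use, stood at 54.5 and 51.3 CPM in cello and at 10.1 and 37.6 CPM in wild-type, and Slc17a6 at 13.0 and 17.9 CPM in cello and at 4.22 and 11.3 CPM in wild-type. Slc38a5, a glutamine transporter gene, stood at 15.0 and 15.7 CPM in cello and at 24.8 and 23.3 CPM in wild-type (log2 fold change -0.63, SE 0.10; DESeq2, adjusted p = 0.012; limma, adjusted p = 0.419). Slc7a11, the cystine and glutamate exchanger gene, had a log2 fold change of -0.41 and the glutaminase gene Gls2 one of 0.49, while Gad2 was under the filter. The neutral amino acid exchangers Slc1a4 (-0.03) and Slc1a5 (0.07) overlapped between genotypes, and Slc1a6 and Slc1a7 were under the filter.

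**Figure D5:**
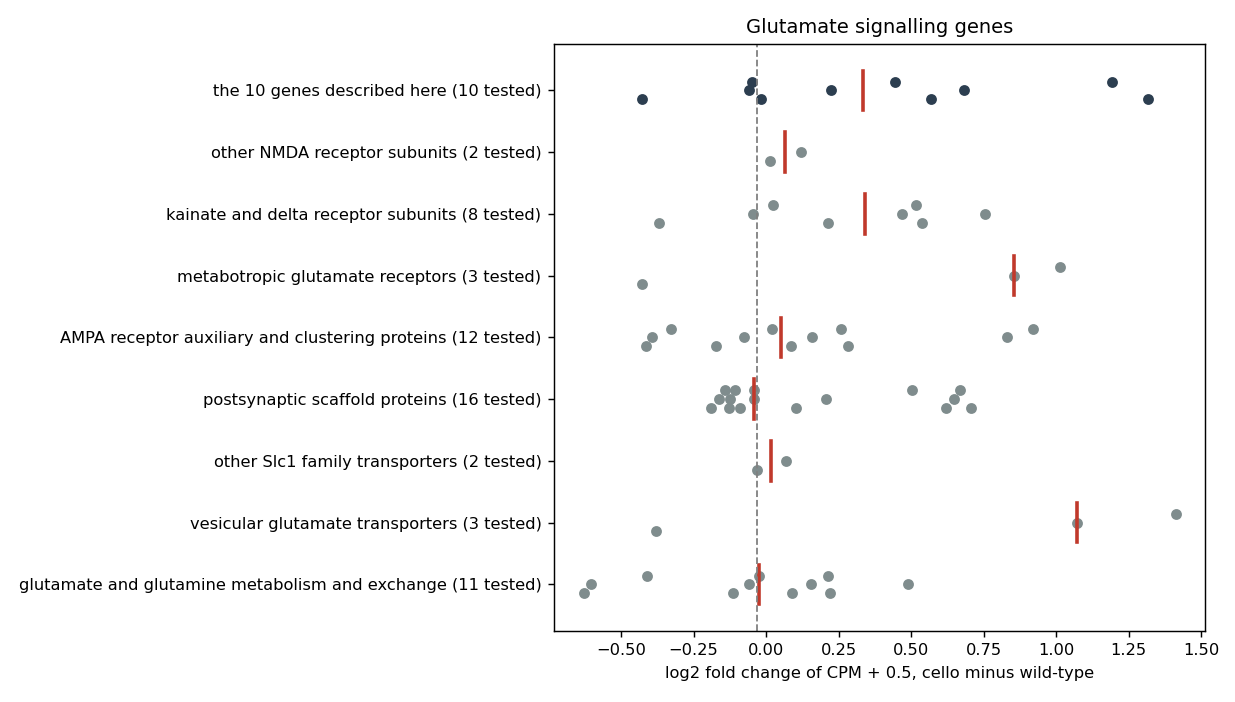
Log2 fold change of CPM + 0.5, cello minus wild-type (horizontal axis), of each tested gene (points) in the 10 genes and in the 8 other lists; red lines are list medians and the dashed line is the median of all genes tested (-0.03). The median of the 10 genes is 0.33 and that of the 8 lists together 0.07.

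The library profile of Gria2 was set beside those of 13562 other tested genes, by the root mean square difference of centred log2 levels over the 4 libraries. The 5 most similar were Cabp1 (0.039), Egr2 (0.068), Ttll6 (0.080), Plekha4 (0.088) and St8sia1 (0.094), and these 5 were all that lay within 0.1. Plekha4, for example, stood at 49.2 and 53.3 CPM in cello and at 15.2 and 27.5 CPM in wild-type, and Egr2 is among the Schwann cell markers above. The flat profiles of Slc1a3 and Glul had 4497 and 2418 genes within 0.1. Their nearest were Plekhg3, Snx14, Ralb, Cog2 and Dock1 for Slc1a3 and Synpo, Ralgds, Coq8a, Susd6 and Thbd for Glul. These similarities are descriptions over 4 libraries.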

How the data were processed

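RNA from 4 whole-cochlea libraries was sequenced. The authors deposited 1 CPM value per gene and library; the deposited values show that CPM was taken over every counted alignment, and 5 entries without a gene, left out of the tests here, held 27.2% to 30.0% of each library. The submitters' processing notes name TopHat and GRCm38. Which program counted reads, with which strand option and gene models, is not given in the sources used here. All values (100%) were whole multiples of 1 read (tolerance 0.001 of a read), so reads were recovered. GENCODE M21 gave symbols, positions and merged exon lengths for 36504 of 37239 identifiers, and RefSeq (GRCm38.p6) the promoters.

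Genes reaching 1 CPM in 2 or more libraries (14721) entered limma 3.58.1 under R 4.3.3 as log2(CPM + 0.5). The fit used a variance trend. Two-sided p-values were adjusted by Benjamini-Hochberg over all 14721 genes, with 0.05 as threshold. Fold changes are cello minus wild-type on that log2 scale, so those of low genes are understated. Other settings tried were pseudocounts of 0.1 or 1, no filter, mean CPM of 5 or more, rescaling by TMM or by median of ratios, CPM over reads in genes, no trend, the replicate number as a block, and each library left out in turn. On recovered reads, edgeR 4.0.16 and DESeq2 1.42.0 were run. The fits were checked on simulated data. Plots were drawn with matplotlib 3.10.9 (Python 3.11.15, pandas 2.3.3).

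The 10 genes and all lists were chosen with earlier results of these data known. Of each other list the 3 tested genes with the smallest p are named, and for Gria2, Slc1a3 and Glul the 5 genes with the most similar profile. Grik5, Gfap, Cabp2, Xist and Ddx3y were named after their values were seen.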

Additional observations from a re-analysis of the deposited data

How the results depend on the processing

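Over the alternatives run, Gria2, Gria3, Gria4, Grin1, Slc1a1 and Slc1a2 stayed above 0 and Gria1 stayed below 0. The number of genes past the adjusted threshold was 0 in limma and stayed 0 under 13 of 15 alternatives, with 1603 genes at an unadjusted p under 0.05 in limma. It was 195 in DESeq2, and from 0 to 90 when 1 library was left out (90 without wild-type replicate 2). The median log2 fold change of the 10 genes was 0.57 at a mean CPM of at least 5, where 7 of them were tested, and from 0.25 to 0.62 when 1 library was left out. Grin2a turned to 0.17 in DESeq2 and 0.18 in edgeR, and ran from -0.75 to 0.63 with 1 library left out. Slc1a3 ran from -0.11 to 0.014, and Glul from -0.13 to 0.093, when 1 library was left out. Glul also stood at 0.011 over reads in genes, 0.0082 with TMM, 0.0087 with median-of-ratios rescaling, 0.025 in DESeq2 and 0.027 in edgeR. The cause was not tested. With 1 library left out, the lone library of a genotype is assumed to vary like the others. With the replicate block, limma called 0 genes, 1902 had an unadjusted p under 0.05, and the 10 genes had adjusted p from 0.232 to 0.968. Deviations of equal replicate numbers correlated at 0.133 across genes, and the labels do not say that a number marks a shared litter or day. Grin2a rested on 24 to 108 reads a library and Slc1a1 on 58 to 74, and the part of depth in the width of their intervals was not tested.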
